A study of Mus musculus with 4 samples.

Results

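The ESCRT genes described here are Tsg101, Vps28, Vps37b, Chmp4b, Chmp2a, Vps4a, Vps4b, Pdcd6ip, Hgs and Stam. They were picked by gene symbol, and these 10 symbols filled 11 of the 31053 rows of the gene list, because Hgs has 2 entries. The data were 10x 3′ single-cell transcriptomes of CD45.2+ immune cells sorted from the lungs of C57BL/6 mice, with 1 library for each of 4 groups. The WT groups were Ift20 f/f mice and the KO groups were Ift20 f/f CD4 cre mice, in which Cre driven by the CD4 promoter removes exons 2 and 3 of Ift20 between loxP sites in introns 1 and 3. Ift20 encodes a subunit of the intraflagellar transport machinery. Mice of each genotype received either DPBS, a buffered saline, or papain, a plant protease used as an allergen, intranasally at 25 µg on consecutive days with a challenge on day 14, and lungs were taken on day 15. The mice were 5 to 10 weeks old, and males per the methods of the study. The groups are called DPBS WT and DPBS KO for the saline and Papain WT and Papain KO for the allergen, and 4 values in a row are given in this order. The CD4 promoter is active in developing thymocytes that also give rise to CD8 T cells, so the deletion reaches both lineages. The sources used here do not give the number of mice behind a library.

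The endosomal sorting complexes required for transport, or ESCRT, bud membrane away from the cytosol: they sort ubiquitinated receptors into the vesicles of multivesicular bodies and cut the membrane neck between daughter cells at the end of division. ESCRT-0 (Hgs and Stam) binds ubiquitinated cargo, ESCRT-I (Tsg101, Vps28, Vps37 and Mvb12 proteins) is recruited next, ESCRT-III subunits (the Chmp proteins) form the filament that constricts the neck, and the ATPases Vps4a and Vps4b take it apart. Pdcd6ip, also called ALIX, is an adaptor that links ESCRT-I to ESCRT-III. In T cells this route carries engaged antigen receptors toward lysosomes.

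The contacts among these proteins are written in their coding sequence. The UEV domain of TSG101 binds a short proline-rich motif, and the reading frames of the GENCODE M21 transcripts were searched for its spellings, the codon CCN, then ACN, TCN, AGT or AGC, then GCN and CCN. The search found it in Hgs, Pdcd6ip and Tsg101 and in none of the other 7 genes nor in Ift20. Of all 21584 coding sequences searched, 761 (3.53%) held it, so a match describes letters and not a binding site in use. Each stretch below is 60 coding bases within 1 exon of GRCm38, written 5′ to 3′ on the coding strand, with the 12 bases of the motif in capitals. They are shown because the letters of the motif were found in these 3 genes of the 10. The Hgs stretch, in which the motif starts at codon 348, is at chr11:120478504-120478563 on the plus strand, the same in both Hgs entries. The Pdcd6ip stretch, in which the motif starts at codon 722, is at chr9:113657146-113657205 on the minus strand. The Tsg101 stretch, in which the motif starts at codon 321, is at chr7:46891012-46891071 on the minus strand.
Hgs: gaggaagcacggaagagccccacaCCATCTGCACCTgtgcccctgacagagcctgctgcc
Pdcd6ip: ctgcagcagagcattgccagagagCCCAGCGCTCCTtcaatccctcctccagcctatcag
Tsg101: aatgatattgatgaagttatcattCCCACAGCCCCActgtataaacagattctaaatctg

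The libraries held 5863 to 8552 barcodes and 53854420 to 75675956 unique molecular identifiers (UMIs, 1 per captured transcript), and 25892 of 28805 barcodes were kept. Pairs of libraries shared 7 to 16 barcodes. Cells were clustered without the 10 genes and named from marker lists. The summed T cell markers read 4325 to 4926 CPM (the UMIs of a gene or list scaled to 1 common total per sum of cells) in CD4 T cells and 28.7 to 61.0 CPM in B cells, while the B cell list read 6662 to 7850 CPM in B cells and 21.6 to 54.7 CPM in CD4 T cells. CD4 T cells numbered 1242, 859, 1299 and 907. Levels were computed by summing UMIs over the cells of a class in a library, because cells of 1 library are not replicates. With 1 library per group, the ratios between genotypes or treatments have no replicate check and were not tested, and the 95% intervals given cover counting error only.

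Ift20 (ENSMUSG00000001105), the targeted gene, read 58.1, 21.1, 58.2 and 17.4 CPM in CD4 T cells, low in both KO libraries. In CD8 T cells it read 52.9, 16.2, 51.5 and 16.1 CPM, with the same split. B cells, in which Cd4 was at 0.147 to 1.38 CPM beside 147.9 to 196.4 CPM in CD4 T cells, read 43.9, 34.4, 38.7 and 40.4 CPM. The KO over WT log2 ratio in CD4 T cells was -1.46 (95% interval -1.77 to -1.16) in DPBS and -1.74 (-2.05 to -1.45) in papain. The 3′ tags lie outside the deleted exons, so they measure the level of the transcript and not the deletion.

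Of the 10 genes, 9 were read and Hgs was not. Hgs, the ubiquitin-binding subunit of ESCRT-0, is annotated as ENSMUSG00000025793 and ENSMUSG00000116045, which overlap on the plus strand of chromosome 11 over 16345 bases. Of the 60-base stretches in the last 500 bases of their transcripts, 91.5% and 98.9% were shared between the entries, so most reads from this end could not be assigned to 1 entry. The first entry held 8 UMIs and the second 72 over all named classes, and no value of it is interpreted. Tsg101 (ENSMUSG00000014402, chr7:46888949-46919969, minus strand) has a pseudogene copy, Tsg101-ps, which shares 24.6% of the 60-base stretches of the whole Tsg101-201 transcript but none of the 441 stretches in its last 500 bases, where 3′ tags fall. Among the other genes, the reading limits were overlaps at gene ends. Vps37b (ENSMUSG00000066278, chr5:124004641-124032270, minus strand) overlaps Hip1r on the opposite strand over 918 bases, Vps4a overlaps Pdf on the opposite strand over 1058 bases, and Vps28 (ENSMUSG00000115987, chr15:76622087-76626086, minus strand) shares 85 bases at its 5′ end with Tonsl on the same strand.

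Across 9 classes of cells, Vps37b stood apart from the other ESCRT genes by its range. The mean over the 4 libraries spanned 31.1-fold from the lowest to the highest class for Vps37b, and 2.07-fold to 4.28-fold for the other 8 genes. Vps37b encodes the B form of the third subunit of ESCRT-I, 1 of 4 interchangeable forms. It was highest in NK cells at 1136 ± 224 CPM (SD, n = 4 libraries), CD4 T cells at 1044 ± 329 CPM and neutrophils at 1029 ± 156 CPM, and lowest in alveolar macrophages at 36.6 ± 8.10 CPM. From NK cells down through CD8 T cells (832.7 ± 218 CPM), ILC2 (752.1 ± 189 CPM) and B cells (461.7 ± 110 CPM), each class overlapped the next in range. B cells at 326.6 to 594.4 CPM lay wholly above monocytes at 130.6 to 154.6 CPM, which lay above interstitial macrophages, which lay above alveolar macrophages at 28.1 to 45.5 CPM.

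Tsg101, which encodes the ubiquitin-binding core subunit of ESCRT-I, varied least. In CD4 T cells it read 43.7, 42.2, 49.3 and 44.3 CPM, from 346, 228, 451 and 290 UMIs. The counting intervals of these 4 values, of which the lowest bound was 36.9 and the highest 54.1 CPM, all overlapped. Its class means ran from 73.2 ± 3.95 CPM in alveolar macrophages through 68.3 ± 4.14 in interstitial macrophages, 60.8 ± 6.82 in monocytes, 56.5 ± 9.82 in NK cells, 47.6 ± 3.97 in B cells, 44.9 ± 3.09 in CD4 T cells, 42.1 ± 8.70 in ILC2 and 42.1 ± 14.7 in neutrophils to 35.4 ± 3.52 CPM in CD8 T cells. Each class overlapped the next in range, although CD4 T cells, at 42.2 CPM or more, lay above CD8 T cells, at 39.9 CPM or less. Neutrophils were the most scattered, at 30.1, 62.4, 43.5 and 32.4 CPM from 33, 49, 82 and 53 UMIs. This class joined unlike clusters, and the part of that mixture in the neutrophil values was not tested. Its shallower cluster (median 3202.5 UMIs a cell) read 25.7 ± 12.5 CPM of Tsg101. The deeper cluster (median 10618 UMIs), with monocyte as its second-best class, read 60.5 ± 19.3 CPM. In the same order, Vps28 read 217.2 and 128.2 CPM and Vps37b 1500 and 562.3 CPM. Vps28, the ESCRT-I subunit that bridges to the next complex, had another order: NK cells were highest at 223.3 ± 17.1 CPM, above every other class in range, ILC2 and neutrophils followed at 182.4 ± 16.5 and 171.2 ± 11.6 CPM, and interstitial macrophages were lowest at 84.0 ± 10.7 CPM. Of the 3 ESCRT-I genes, Vps28 and Vps37b had their highest class mean in NK cells and Tsg101 in alveolar macrophages.

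The ESCRT-III genes Chmp4b, which encodes the main filament subunit, and Chmp2a, which encodes a capping subunit, were both highest in monocytes, at 291.7 ± 9.10 and 243.0 ± 10.5 CPM. Chmp4b was lowest in B cells at 113.9 ± 7.88 CPM and Chmp2a in CD8 T cells at 89.5 ± 5.33 CPM, each below the next class in range. The ATPase genes parted in neutrophils. Vps4b was highest there at 119.5 ± 11.7 CPM, above every other class in range, whereas Vps4a was lowest there, at 11.7 to 19.1 CPM, below every other class in range. Vps4a was highest in alveolar macrophages at 38.5 ± 2.76 CPM, although NK cells overlapped them. Pdcd6ip was highest in alveolar macrophages at 217.2 ± 9.26 CPM, above NK cells at 179.0 ± 13.8 CPM, and lowest in B cells at 64.1 ± 3.42 CPM. Stam, the partner of Hgs in ESCRT-0, was the sparsest of the 9 in reads. It read 5.18, 6.86, 6.67 and 7.79 CPM in CD4 T cells from 37 to 61 UMIs a library, and NK cells held 2, 0, 2 and 3 UMIs, too few to place.

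**Figure D1:**
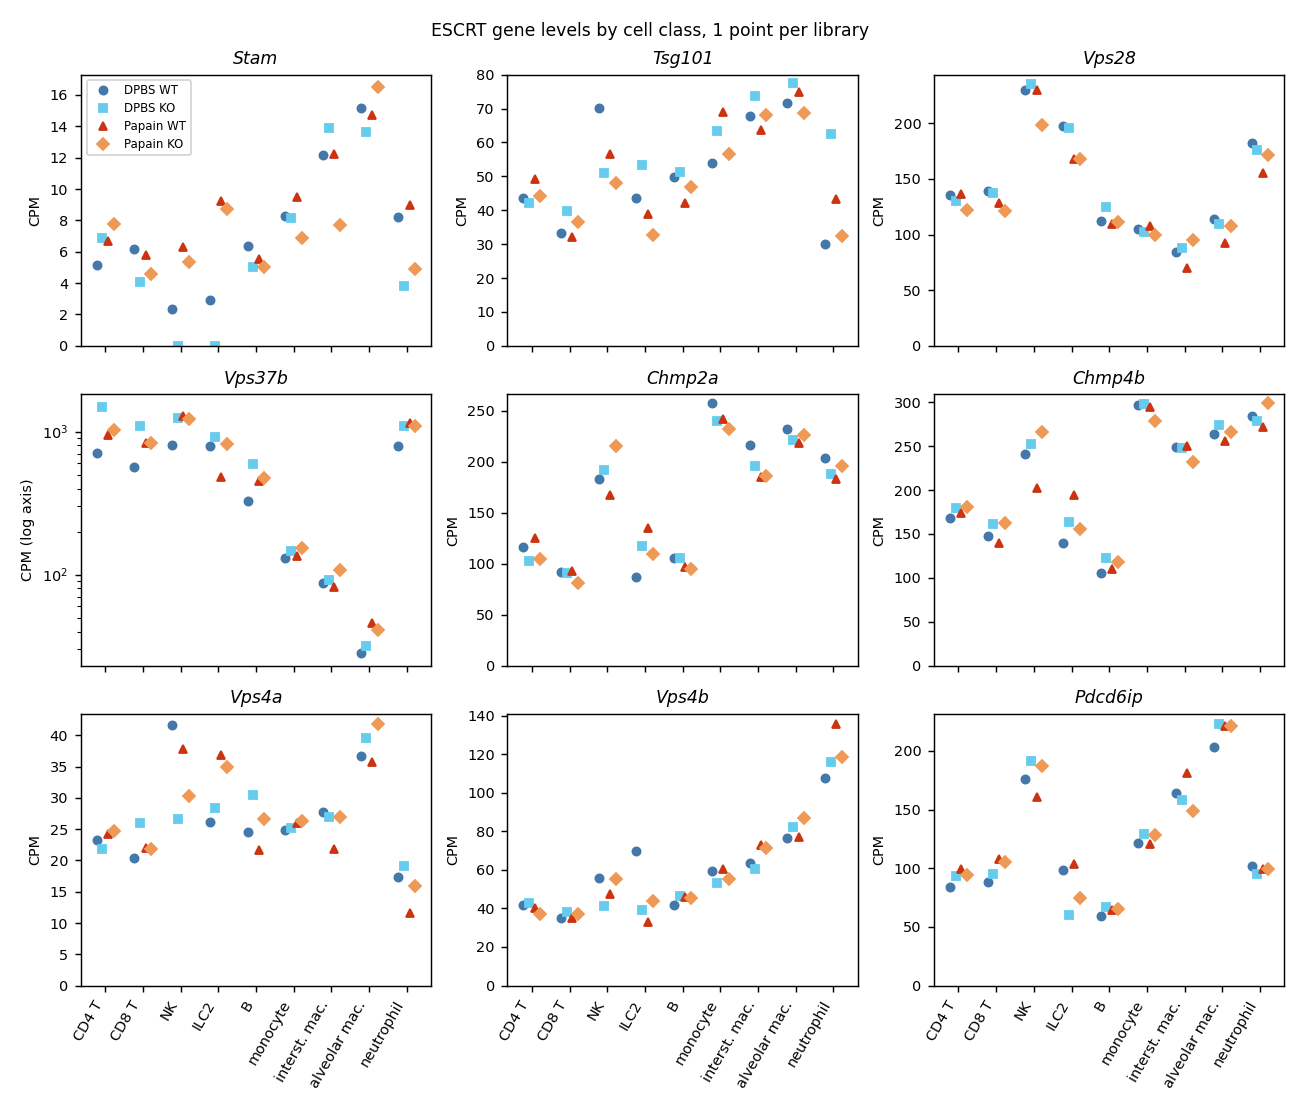
Level of 9 ESCRT genes in CPM (vertical axis; logarithmic for Vps37b, from 0 for the others) in 9 cell classes (horizontal axis), with 1 point for each of the 4 libraries. Vps37b falls from 1136 CPM in NK cells to 36.6 CPM in alveolar macrophages on average, whereas the means of Tsg101 stay between 35.4 and 73.2 CPM.

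These class differences were tested between CD4 T cells and 5 other classes with edgeR's quasi-likelihood test on the summed counts, with the library as a block and Benjamini-Hochberg adjustment over the 12573 genes tested. The library block takes out shifts common to all classes of a library. The p-values therefore weigh a class difference against the spread that is left between the 4 libraries. That spread was estimated for each gene over all classes together, including classes outside the comparison. The libraries differ in genotype and treatment, and nothing shows them to be repeats of 1 condition. Over all genes, TMM scaling moved the log2 differences from those of plain CPM by -0.11 for CD8 T cells, 0.24 for alveolar macrophages and -0.24 for neutrophils, and by under 0.1 for B cells and monocytes.

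CD4 T and CD8 T cells did not differ in any of the 9 genes by the adjusted test, while 15.4% of all genes did (8.21% higher and 7.23% lower in CD4 T cells). At an unadjusted p under 0.05, 3 of the 9 genes stood out. DESeq2 called 2, Chmp2a higher in CD4 T cells (0.22, DESeq2 adjusted p = 0.000833) and Pdcd6ip lower (-0.22, DESeq2 adjusted p = 0.00322). The log2 difference was 0.23 (SE 0.10) for Tsg101, with adjusted p = 0.112 in edgeR's quasi-likelihood test with Benjamini-Hochberg adjustment, and 0.21 (SE 0.08) for Chmp2a with adjusted p = 0.0834. Vps37b, at 0.21 (SE 0.16) with adjusted p = 0.445 in the same edgeR test, was not among the genes at an unadjusted p under 0.05. Without TMM factors, 3 genes were called, with Tsg101 at 0.35, Chmp2a at 0.33 and Chmp4b at 0.20, so no order of CD4 and CD8 T cells can be read for them.

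Against B cells, 4 of the 9 genes were higher in CD4 T cells and none was lower, where 53.6% of all genes differed (26.8% higher, 26.8% lower). Vps37b was higher by 1.18 (SE 0.16) on the log2 scale, with adjusted p = 1.08e-07 in edgeR's quasi-likelihood test with Benjamini-Hochberg adjustment. Its B cell values of 326.6, 594.4, 454.0 and 471.7 CPM lay below the CD4 T value of the same library each time, at 705.3, 1493, 952.6 and 1026 CPM. Chmp4b rose by 0.63 (SE 0.09), Pdcd6ip by 0.54 (SE 0.09) and Vps28 by 0.20 (SE 0.08, adjusted p = 0.0237, lost without DPBS WT). Tsg101 differed by -0.07 (SE 0.09, adjusted p = 0.528), and its B cell levels of 49.8, 51.2, 42.2 and 47.0 CPM overlapped those of CD4 T cells.

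Against alveolar macrophages, the phagocytes resident in the airspace, all 9 genes differed, 2 higher and 7 lower in CD4 T cells, where 78.4% of all genes differed (39.2% higher, 39.2% lower). Vps37b (log2 5.04, SE 0.19) and Vps28 (0.55, SE 0.07) were higher. The lower genes ran from Pdcd6ip at -0.99 (SE 0.08), Stam at -0.96 (SE 0.16) and Chmp2a at -0.77 (SE 0.08) to Tsg101 at -0.47 (SE 0.09), with adjusted p = 1.03e-05 by edgeR's quasi-likelihood test with Benjamini-Hochberg adjustment, and Chmp4b at -0.36 (SE 0.08). Monocytes gave the same directions for the 7 genes called, where 73.2% of all genes differed (37.3% higher, 35.9% lower). Vps37b (2.84, SE 0.17) and Vps28 (0.33, SE 0.08) were higher in CD4 T cells. Chmp2a (-1.12, SE 0.08), Chmp4b (-0.74, SE 0.08), Vps4b (-0.51, SE 0.09), Tsg101 (-0.44, SE 0.09) and Pdcd6ip (-0.44, SE 0.09) were lower, and Stam and Vps4a did not pass the test.

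Against neutrophils, 1 gene was higher and 5 were lower in CD4 T cells, where 68.7% of all genes differed (35.5% higher, 33.2% lower). Vps4b fell by 1.84 (SE 0.11) on the log2 scale, with adjusted p = 2.11e-17 in edgeR's quasi-likelihood test with Benjamini-Hochberg adjustment, and Vps4a rose by 0.36 (SE 0.14) with adjusted p = 0.0391, a call lost when DPBS WT, Papain WT or Papain KO was left out. Vps4b read 107.7, 115.8, 135.7 and 118.7 CPM in neutrophils and 41.8, 42.8, 40.5 and 37.1 CPM in CD4 T cells, without overlap. Vps4a read 17.4, 19.1, 11.7 and 15.9 CPM against 23.2, 21.9, 24.3 and 24.8 CPM, also without overlap and in the opposite direction. Chmp2a, Chmp4b and Vps28 were lower by 1.03, 0.94 and 0.64. Pdcd6ip was lower by 0.35 (SE 0.10), but its levels of 84.1 to 99.4 CPM in CD4 T cells and 95.5 to 102.3 CPM in neutrophils overlapped, and its call was lost without TMM factors, without the filter on low counts and with doubled doublet removal. Tsg101 (-0.12, SE 0.13) and Vps37b (-0.26, SE 0.16) did not pass the test, and the sign of their difference turned with the processing. With classes gated on marker transcripts, Tsg101 was called higher in CD4 T cells, by 0.38 (adjusted p = 0.0389 in the same edgeR test). The neutrophil class joined clusters with Tsg101 means of 25.7 and 60.5 CPM, and their part in these differences was not tested.

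**Figure D2:**
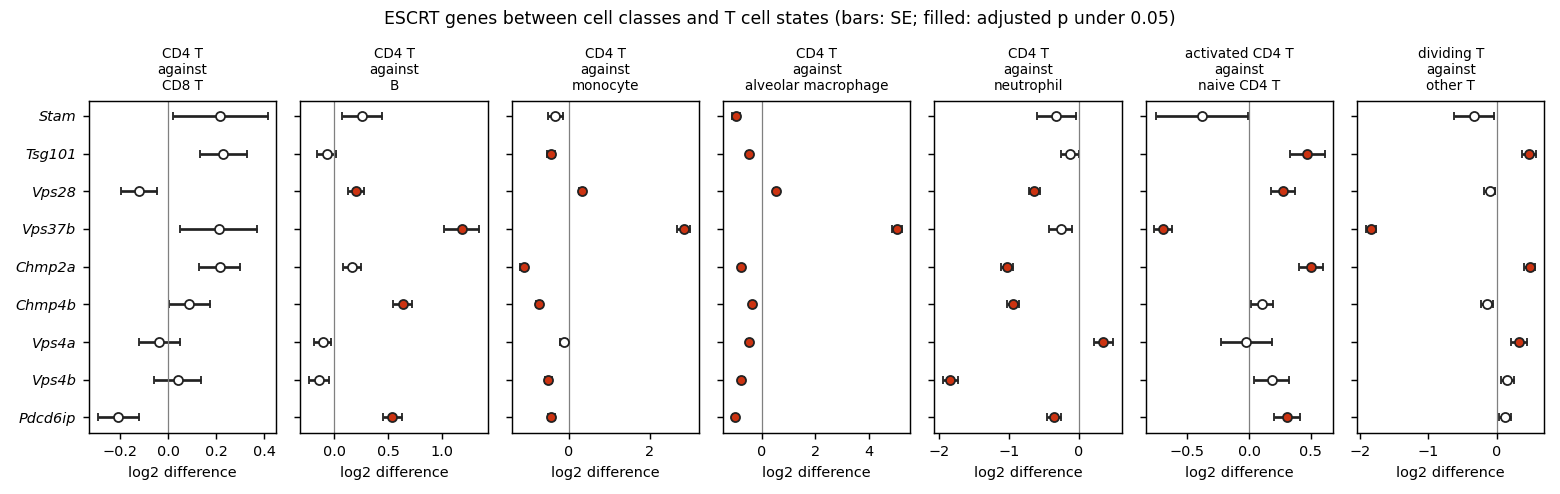
Fitted log2 difference of each gene (horizontal axis; a scale of its own in each panel) in 5 comparisons between cell classes and 2 between T cell states, with bars of 1 SE and filled points at adjusted p under 0.05. Vps37b reaches 5.04 against alveolar macrophages and -1.84 in dividing T cells, and Tsg101 lies between -0.47 and 0.47 throughout.

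The other ESCRT genes on a list of 25 put these values in their pathway. Of 23 that could be tested between classes, 1 was higher in CD4 T than in CD8 T cells, the ESCRT-III gene Chmp3 (0.29). Against B cells, 2 were higher and 5 lower, with the ESCRT-I gene Mvb12b at 3.62, the midbody gene Cep55 at 1.63, Vps37c, the C form of the Vps37 subunit, at -0.71 and the ESCRT-III gene Chmp2b at -0.61. Against alveolar macrophages, 14 were lower and none higher, with the ALIX-related phosphatase gene Ptpn23 at -1.69 and the deubiquitinase gene Usp8 at -1.45. Against monocytes 2 were higher (Cep55 at 3.46 and Mvb12b at 2.38) and 17 lower, with Chmp2b at -2.09 and Ist1, a regulator of VPS4, at -1.79. Against neutrophils 3 were higher and 14 lower, with Cep55 at 4.80, Chmp7 at 0.61, Ptpn23 at -2.61 and Ist1 at -2.49. The median log2 difference of the 9 genes was -0.47 against alveolar macrophages, -0.44 against monocytes and -0.35 against neutrophils, beside -0.45, -0.38 and -0.64 for the wider list and 0.01, 0.04 and 0.13 for all genes. In these comparisons most ESCRT genes were lower in CD4 T cells, and Vps37b and Vps28 ran the other way against both mononuclear phagocytes.

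Within T cells, dividing cells and a group named activated, which includes regulatory-type cells, were each compared with other T cells. Dividing T cells, a sub-cluster led by cell cycle genes with 61, 30, 100 and 59 cells, were compared with the other T cells of the same library. Their summed T cell markers read 3228 to 4843 CPM, beside 4206 to 4711 CPM in the other T cells. The B cell list read 130.9 to 566.6 CPM beside 17.5 to 28.3 CPM, the plasma cell list 74.6 to 1285 CPM beside 36.7 to 49.4 CPM, and the ILC2 list 286.0 to 906.1 CPM beside 102.8 to 480.6 CPM. The part of these cell types in the differences was not tested directly. With doubled doublet removal, which left 32, 22, 71 and 43 dividing cells, the call of Vps4a was lost and 3 calls were left. In dividing cells 3 genes were higher and 1 was lower, where 62.0% of the 10637 genes tested differed (31.6% higher, 30.4% lower). Tsg101 read 62.1, 77.6, 60.2 and 73.1 CPM in dividing cells and 37.7, 38.8, 41.6 and 36.8 CPM in the others, without overlap. The dividing sub-cluster also scored 1.53 on the activated and 2.09 on the regulatory T cell list (mean log2 ratios of detection shares against other T cells). The larger activated CD4 T sub-cluster, which was not dividing, read 53.2, 74.2, 75.8 and 55.4 CPM of Tsg101, overlapping the dividing cells. Division was therefore not separated from activation here, and its own part was not tested. The fitted difference was 0.47 (SE 0.10), with adjusted p = 0.00139 in edgeR's quasi-likelihood test with Benjamini-Hochberg adjustment. Chmp2a rose by 0.48 (SE 0.08), from 86.4–109.2 CPM to 160.7–194.8 CPM. Vps4a, which acts at the last cut between daughter cells together with Vps4b, rose by 0.33 (SE 0.12, adjusted p = 0.028, lost without DPBS WT, DPBS KO or Papain WT). Vps37b fell by 1.84 (SE 0.08), reading 222.7, 526.4, 306.7 and 368.2 CPM in dividing cells and 685.6, 1319, 977.1 and 990.2 CPM in the others, so that the value in dividing cells was lower in each of the 4 libraries.

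The median dividing cell held 21769 to 30960 UMIs in all and the median other T cell 5888.5 to 7015, and CPM shows shares of these totals. Per cell, Vps37b was not lower: dividing cells held 7.23 to 11.6 UMIs of it and the other T cells 4.34 to 9.11. Tsg101 per cell was 1.62 to 2.31 UMIs against 0.239 to 0.291. TMM scaling moved the log2 differences of all genes by -0.33 here, and without its factors Vps4b (0.47) and Pdcd6ip (0.44) were called as well. Of the wider list, 8 of 23 genes were higher and 4 lower in dividing cells. Cep55, whose protein calls TSG101 and ALIX to the midbody of dividing cells, was 5.50 higher and the ESCRT-II gene Snf8 0.93 higher, while the ESCRT-III gene Chmp2b and the ESCRT-I gene Vps37a were both at -0.70.

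Activated CD4 T cells, with 81, 55, 254 and 75 cells, were compared with naive CD4 T cells. They came from a sub-cluster led by Tnfrsf4, Ctla4 and Ikzf2 and a smaller one led by Lrrc32, Izumo1r and Foxp3. Foxp3 was among the leading genes of both. Scores were mean log2 ratios of detection shares against other T cells. The regulatory T cell list scored 2.20 and 2.55, and the activated list 1.62 and 0.02. Regulatory and activated cells were thus not separated here. The ILC2 marker list read 557.5 to 1955 CPM in activated and 75.7 to 87.1 CPM in naive cells, the conventional dendritic cell list 39.8 to 99.0 CPM beside 1.15 to 1.74 CPM, and the B cell list 24.4 to 81.8 CPM beside 11.4 to 20.8 CPM; their part in the differences was not tested. Of the 9 genes, 4 were higher and 1 was lower, where 32.3% of the 9333 genes tested differed (17.6% higher, 14.7% lower). Tsg101 read 50.5, 65.0, 74.6 and 59.1 CPM in activated cells, from 33, 27, 150 and 35 UMIs, and 39.9, 37.8, 37.0 and 36.7 CPM in naive cells, so the groups did not overlap. It was higher by 0.47 (SE 0.14), with adjusted p = 0.0132 in edgeR's quasi-likelihood test with Benjamini-Hochberg adjustment. Chmp2a was higher by 0.50 (SE 0.10), at 168.5, 144.3, 171.7 and 158.6 CPM against 101.0, 93.8, 93.4 and 89.7 CPM. Pdcd6ip (0.30, SE 0.11) and Vps28 (0.27, SE 0.10) were also called. Vps37b was lower by 0.70 (SE 0.07), at 655.5, 1227, 836.5 and 793.2 CPM against 815.7, 1573, 1135 and 1171 CPM, lower in each library. That direction held against only part of the naive cells. The larger activated sub-cluster read 607.9, 1140, 826.0 and 708.6 CPM, below the naive sub-cluster led by Dusp10 (1751 to 2071 CPM). In each library it lay above the naive sub-clusters led by Igfbp4 and Ly6c1 (234.8, 515.1, 323.7 and 268.6 CPM) and by Ly6c1 and Trat1 (377.9, 736.5, 379.2 and 371.9 CPM).

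Calls in activated cells rested on few cells. The 5 calls became 2 without Papain WT, 3 without DPBS KO and 3 without Papain KO; without the library block 3 were left. The call of Tsg101 was lost without Papain WT, the library with most activated cells, and with DESeq2 on all 4 libraries (0.45, adjusted p = 0.0931). TMM scaling moved the differences of all genes by -0.28, and without its factors Vps4b (0.46) and Chmp4b (0.39) were called as well, 7 in all. Per cell, activated cells held 0.407 to 0.591 UMIs of Tsg101 and naive cells 0.215 to 0.234, and the corresponding ranges for Vps37b, 5.28 to 9.27 and 4.41 to 9.38, overlapped. The median activated cell held 6416.5 to 7107 UMIs in all and the median naive cell 5285.5 to 6218.5. Cells of the activated sub-clusters were kept only with a Cd4 UMI and without a Cd8a or Cd8b1 UMI, whereas the larger naive sub-clusters were kept whole. This choice favours deeper activated cells. Of the 21 wider genes tested, 4 were higher and none lower, including the ESCRT-I gene Mvb12a at 1.10 and the ESCRT-III gene Chmp6 at 0.82.

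Between genotypes under DPBS, 1 of the 9 genes in CD4 T cells differed by more than 1.5-fold, where 11.6% of the genes with at least 50 UMIs over the 2 libraries did. This was Vps37b, at 1493 CPM in DPBS KO against 705.3 CPM in DPBS WT, a log2 ratio of 1.08 (95% interval 1.03 to 1.13). It was the highest of the 4 libraries in KO and the lowest in WT. Tsg101, at 42.2 against 43.7 CPM, had a ratio of -0.05 (-0.30 to 0.20), and Chmp2a one of -0.18 (-0.33 to -0.03). The median of the 9 genes was 0.03, beside -0.06 for all genes with at least 50 UMIs.

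Under papain no gene of the 9 passed 1.5-fold between genotypes, where 10.4% of all genes did. Vps37b read 1026 CPM in Papain KO against 952.6 CPM in Papain WT, a ratio of 0.11 (0.06 to 0.15). Chmp2a (-0.25, -0.39 to -0.12) and Vps28 (-0.15, -0.28 to -0.02) were lower, and Tsg101 was at -0.15 (-0.37 to 0.06). Papain against DPBS also left all 9 under 1.5-fold in CD4 T cells, where 11.6% of all genes passed in WT and 6.83% in KO. Vps37b went up in WT, at 0.43 (0.38 to 0.48), and down in KO, at -0.54 (-0.59 to -0.49). These 4 ratios share their libraries: DPBS WT and DPBS KO are the extremes, and the papain libraries lie between them. Tsg101 was at 0.18 (-0.03 to 0.38) in WT and 0.07 (-0.19 to 0.33) in KO, so no change of it with papain was detectable at this depth.

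A higher Vps37b value in DPBS KO was also read in the other lymphocytes, both in CD8 T cells, which the deletion reaches, and in B cells, which the Cre line does not target. In CD8 T cells, where 7.79% of genes passed 1.5-fold, Vps37b read 569.3, 1103, 826.0 and 833.1 CPM, a KO over WT ratio in DPBS of 0.95 (0.90 to 1.01). Stam was also just past 1.5-fold there, at -0.59 from 22 and 48 UMIs with an interval that reached from -1.39 to 0.17. In B cells, where 6.03% passed, Vps37b had a ratio of 0.86 (0.80 to 0.93) and Ift20 one of -0.35 (-0.59 to -0.12). The ratio was 0.63 (0.46 to 0.80) in NK cells, 0.45 (0.31 to 0.59) in neutrophils, 0.17 (0.03 to 0.31) in monocytes and 0.17 (0.02 to 0.31) in alveolar macrophages. Under papain it was 0.01 in CD8 T cells and 0.06 in B cells. The differences between classes were not tested.

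**Figure D3:**
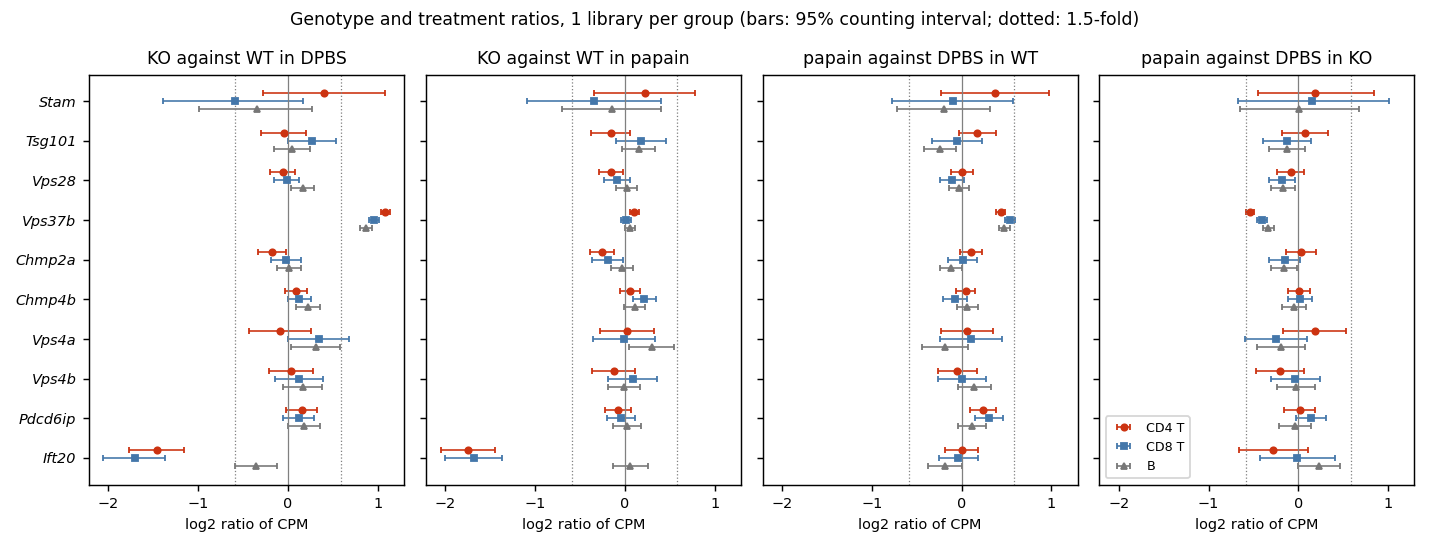
Log2 ratio of CPM between 2 libraries (horizontal axis) for 9 ESCRT genes and Ift20 in CD4 T, CD8 T and B cells, with 95% counting intervals and dotted lines at 1.5-fold. Vps37b is past 1.5-fold between genotypes in DPBS in all 3 classes, and Ift20 is past it between genotypes in CD4 T and CD8 T cells in both treatments.

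Each lymphocyte class held clusters that differed in Vps37b by several fold, although Vps37b itself was kept out of the clustering. Of the 4 sub-clusters that held most CD4 T cells, the one led by Dusp10, Igfbp4 and Trib2 read 1751, 2071, 2007 and 2059 CPM of Vps37b, or 9, 12, 11 and 12 UMIs in the median cell. The sub-cluster led by Igfbp4, Ly6c1 and Pdlim4 read 234.8, 515.1, 323.7 and 268.6 CPM. The 2 ranges did not overlap. In B cells the cluster led by Scd1 and Ebf1 read 630.6, 780.3, 818.9 and 729.6 CPM, and the cluster led by Fcer2a and Ighd 104.3, 162.1, 113.4 and 122.9 CPM. In CD8 T cells the corresponding ranges were 1277 to 1618 and 202.0 to 536.1 CPM.

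Between these clusters, heat-shock transcripts moved the other way. Heat-shock genes, unlike Vps37b, were not kept out of the clustering, so they may have helped to form the clusters. The summed level of 5 heat-shock genes (Hspa1a, Hspa1b, Dnajb1, Hsph1 and Hspe1, chosen after their values were seen) was 977.7, 591.1, 821.9 and 747.8 CPM in the Vps37b-high CD4 T sub-cluster, and 3630, 5286, 5726 and 6875 CPM in the Vps37b-low one. In B cells it was 1500, 475.5, 959.3 and 750.6 CPM in the Vps37b-high cluster and 5685, 9878, 9787 and 9509 CPM in the low one. The high and low ranges were apart in both classes. Across libraries the relation was mixed. From DPBS WT to DPBS KO, Vps37b and the heat-shock sum were both higher in the low clusters of CD4 T and B cells. In the high clusters, Vps37b was higher and the sum lower. Over all CD4 T cells the sum was 2678, 2339, 3814 and 3818 CPM, while Vps37b was lowest in DPBS WT and highest in DPBS KO. Tsg101 differed less, at 47.3, 43.4, 45.9 and 40.0 CPM in the high and 33.8, 28.2, 26.7 and 32.1 CPM in the low CD4 T sub-cluster, the latter from 27 to 87 UMIs.

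The share of cells in the Vps37b-high clusters also moved with the library. It was 32.1, 59.4, 36.0 and 43.8% of CD4 T cells, 27.5, 43.7, 26.0 and 31.6% of CD8 T cells and 36.6, 67.7, 46.1 and 55.1% of B cells, highest in DPBS KO in all 3 classes. The exact binomial intervals of DPBS KO (56.0 to 62.7% for CD4 T and 65.3 to 70.1% for B cells) lay apart from those of DPBS WT (29.5 to 34.8% and 34.6 to 38.6%). These intervals count cells of 1 library as independent and hold no spread between libraries, so they cannot show a difference between groups. Within the high CD4 T sub-cluster the KO over WT ratio of Vps37b in DPBS was 0.24 (0.18 to 0.30), and within the low one it was 1.13 (0.96 to 1.31). Over the 4 CD4 T sub-clusters with enough cells, the ratio was 0.95 with each library's own shares and 0.50 with all shares held at those of DPBS WT. The same 2 values were 0.94 and 0.69 over 3 CD8 T sub-clusters, and 0.86 and 0.35 over 3 B cell clusters. The part of heat-shock and cluster shares in the Vps37b difference was not tested, and with 1 library per group, genotype and library cannot be told apart.

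**Figure D4:**
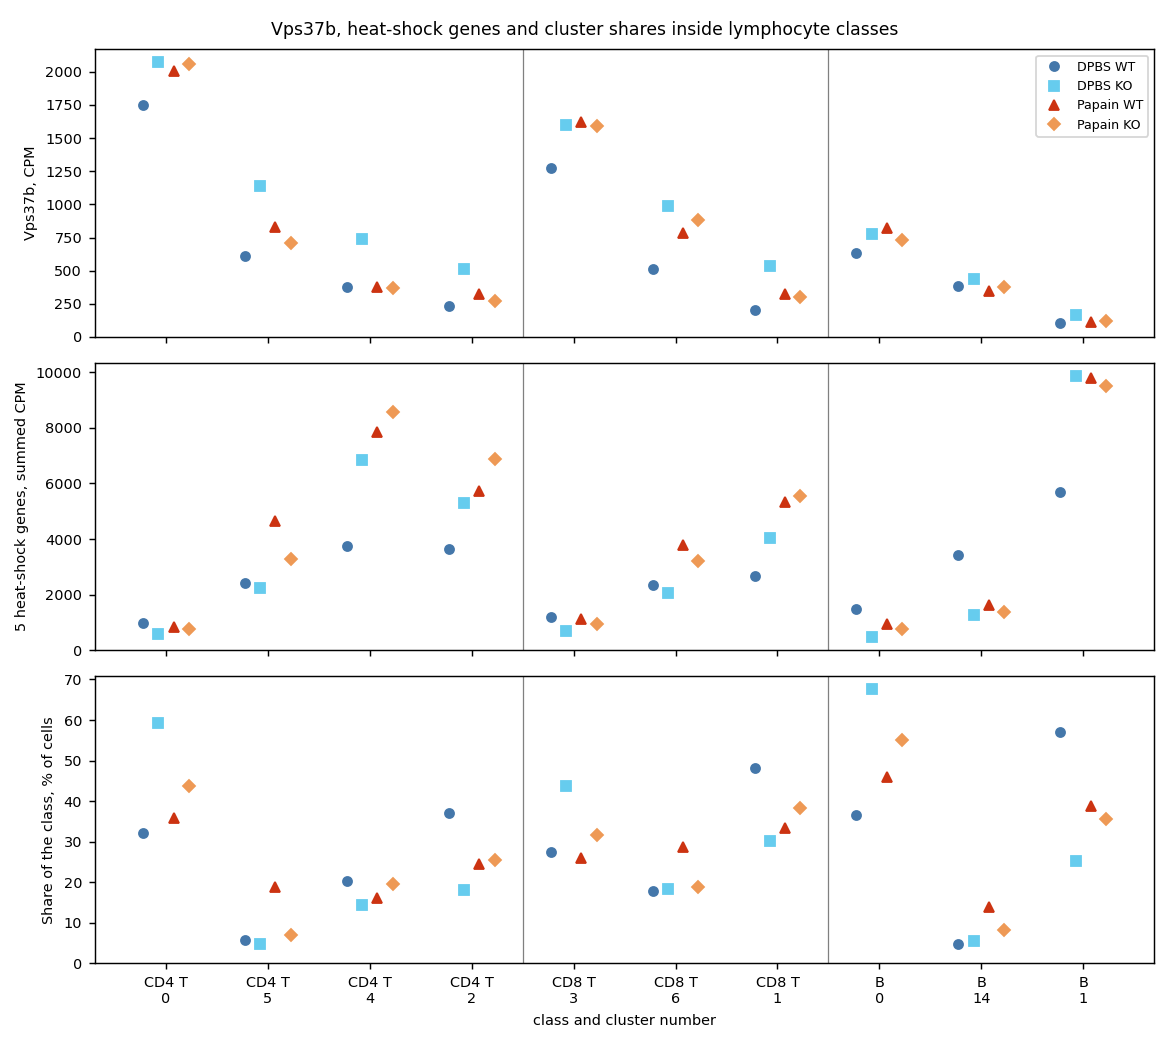
Vps37b in CPM (top), summed CPM of 5 heat-shock genes (middle) and share of the class in percent (bottom) for the clusters of CD4 T, CD8 T and B cells, ordered within each class from high to low Vps37b, with 1 point per library. The cluster highest in Vps37b in each class is the lowest in heat-shock transcripts, and its share is highest in DPBS KO in all 3 classes (59.4, 43.7 and 67.7%). Heat-shock genes were not kept out of the clustering.

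Outside CD4 T, CD8 T and B cells, Tsg101 passed 1.5-fold in neutrophils alone, and Vps37b in several classes. Counted over the genes with at least 50 UMIs, 1 also passed lower in KO in ILC2 under DPBS. In interstitial macrophages under papain, 1 passed lower in KO. Papain against DPBS in WT ILC2 gave 1 higher and 1 lower. The share of all genes past 1.5-fold is not given for these classes, so the passes have no background beside them. In neutrophils Tsg101 was at 1.05 (0.38 to 1.73) between genotypes in DPBS, from 49 and 33 UMIs, and at -0.42 (-0.95 to 0.09) in papain. It was also past 1.5-fold lower in papain than in DPBS in KO. Both passes rest on the DPBS KO value, from 49 UMIs. Vps37b in alveolar macrophages rose from 28.1 CPM in DPBS WT to 45.5 CPM in Papain WT, a ratio of 0.69 (0.54 to 0.85), and stood at 31.6 and 41.1 CPM in the KO libraries. In ILC2, the innate lymphocytes that make type 2 cytokines, Vps37b was at 0.77 (0.54 to 1.00) between genotypes in papain and at 0.22 (-0.03 to 0.47) in DPBS, whereas the CD4 T ratio was larger in DPBS; the ILC2 values came from 50 to 79 cells a library, and this difference was not tested. Of the wider list, 21 genes had at least 50 UMIs in CD4 T cells. In DPBS, 1 was past 1.5-fold higher in KO (Mvb12b, 0.62, 0.11 to 1.12) and 1 lower (Cep55, -1.88, -2.85 to -1.01, from 13 and 70 UMIs). In papain, 1 was past it lower in KO (Ptpn23, -0.66, -1.26 to -0.09). Papain against DPBS gave 1 higher in WT (Ptpn23, 1.19, 0.58 to 1.82) and 1 higher in KO (Cep55, 1.41, 0.49 to 2.44). Cep55 was far higher in dividing T cells, which made up 2.66, 1.16, 3.39 and 2.21% of CD4 T cells. The part of this share in the Cep55 ratios was not tested.

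The genes whose class means followed those of Tsg101 and Vps37b most closely were named as a description over 9 classes and 5781 genes. For Tsg101 these were Ube2k (Pearson r = 0.983), Slc35b1 (0.980) and Pdia6 (0.978). For Vps37b they were Rnf125 (0.966), Rac2 (0.965) and Ing1 (0.957). The points share libraries and depth.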

How the data were processed

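The deposited files hold UMI counts per gene and cell barcode, made by the authors with Cell Ranger 3.1.0 on mm10 (per the file headers and the submitters' processing notes), not normalised. Reads that fit several genes are not counted by that program, which lowers near-identical genes. Here, barcodes with at most 200 genes (163), cells over 15% mitochondrial UMIs (1254) and 1713 top Scrublet doublet scores were removed. Libraries were integrated in Seurat 5.3.0 (2000 variable genes, 30 dimensions) without the members and clustered at resolution 0.8. Clusters with Cd3e in over 35% of cells were clustered again. Names came from fixed markers by a scoring rule set after the clusters were seen, and activated CD4 T cells include Foxp3-led cells. Class sums held 281162 to 26654210 UMIs. Class contrasts used edgeR 4.0.16 in R 4.3.3 (TMM factors, library block); group contrasts were CPM ratios with conditional binomial intervals, called past 1.5-fold with at least 50 UMIs. The edgeR fit, but not the clustering or naming, was tested on simulated counts. These had the same gene means in all classes, 1 fixed dispersion and 200 genes changed. There edgeR recovered 60.5% of genes changed 1.5-fold and 100% of those changed 2-fold between CD4 T and B cells. The shares were 37.0% and 95.5% for dividing T cells, and 17.5% and 86.0% for activated CD4 T cells. Far more genes differ in the real contrasts, so these shares may not hold there. All 10 members were named, with, from the wider list, the 2 highest and 2 lowest called differences per class contrast and those past 1.5-fold with an interval that leaves out 0 in CD4 T cells. The members and lists were chosen with earlier results of these data known. DESeq2 1.42.0, RLE factors, no filter, no block, marker gates, other clustering, doublet and mitochondrial limits and leaving out each library were tried; cluster shares, within-cluster values and a fit without TMM factors were added after seeing the data. Positions are from GENCODE M21 on GRCm38.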

Additional observations from a re-analysis of the deposited data

Results flagged for a closer look

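For 6 results the ratio under 1 contrast pointed one way in some libraries and the opposite way in the others; the differences between the ratios were not tested, because each group is 1 library. Tsg101 in monocytes had a KO over WT log2 ratio of 0.23 in DPBS and -0.28 in papain, from 53.9, 63.4, 69.0 and 56.7 CPM. The papain over DPBS log2 ratio of Vps37b, the B form of the ESCRT-I subunit, was 0.47 in WT and -0.33 in KO for B cells, 0.43 and -0.54 for CD4 T cells, 0.54 and -0.40 for CD8 T cells, 0.48 and -0.43 for naive CD4 T cells, and 0.35 and -0.63 for activated CD4 T cells. These 5 Vps37b results share the same 4 libraries, and B cells, which the Cre line does not target, are among them.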

How the results depend on the processing

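Of 254 recomputed ratios of the genes in CD4 T cells, 237 moved by less than their counting interval, 17 by more, and none that was called changed sign. In the class contrasts, Tsg101 against neutrophils turned from -0.12 to 0.38, called, with marker gates, and genes that were not called in the reported fits also changed sign, among them Vps37b against neutrophils and Chmp4b in dividing T cells, which ran from -0.22 (called without the filter) to 0.18. The Vps37b ratio in DPBS stayed between 0.95 and 1.14, and over 4 sub-clusters was 0.95 with their own shares and 0.50 with shares held. Against CD8 T cells the count of genes called, 0, became 3 on total UMIs without TMM factors, 1 with marker gates and 2 with DESeq2. In activated CD4 T cells the count of 5 became 3 without a filter, 3 without the block and 2 with DESeq2, 7 without TMM factors, and 2 to 4 when 1 library was left out; in dividing T cells the count of 4 became 6 without TMM factors. The count past 1.5-fold between genotypes in DPBS, 1, became 2 with the mean of per-cell CPM, 2 with doubled doublet removal and 2 without the dividing sub-cluster, each by Stam; that for papain in WT, 0, became 1 with the mean of per-cell CPM and 1 without the dividing sub-cluster, also by Stam; and that for papain in KO, 0, became 1 with TMM factors and 1 with marker gates (Vps37b at -0.59). Without the replicate block that ties sums of 1 library, the counts were 0, 4, 9, 7 and 6 against CD8 T cells, B cells, alveolar macrophages, monocytes and neutrophils, and 3 in dividing T cells. Leaving out 1 library gave 0 to 0, 3 to 4, 9 to 9, 7 to 8 and 5 to 7 for these classes, and 3 to 4 in dividing cells. Vps4a in dividing T cells and against neutrophils and Pdcd6ip and Vps28 in activated cells lost their call under several of these settings. No paired analysis was possible between genotypes because those ratios come from no test. Depth limits Stam and all ILC2 and NK values most.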
